A study of Saccharomyces cerevisiae with 24 samples.

Results

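The response to sulfite was followed in *Saccharomyces cerevisiae* cells whose only *FZF1* gene was the full length allele of *Saccharomyces paradoxus*. The 6 arrays of this allele were taken from the 24 arrays of the series by their titles, 3 from the 0 min sample and 3 from the sample taken 15 min after sodium sulfite was added to 1 mM. All strains were built in YJF173, an S288c derivative, in which the native *FZF1* had been replaced by a KANMX marker, and the allele, with its own 5′ and 3′ noncoding sequence, was returned at the *ura3* locus on an integrating plasmid. The other 18 arrays came from the same background with the full length *S. cerevisiae* allele, with a chimera called C.P., in which noncoding sequence 5′ of the gene came from *S. cerevisiae* and the coding region from *S. paradoxus*, or with the reverse chimera, P.C., each also with 3 arrays at 0 min and 3 at 15 min. All cultures grew in rich medium with tartaric acid at low pH, and the replicates were independent. Each culture was sampled before and after sulfite, and no culture without sulfite was sampled at 15 min, so an effect of sulfite and an effect of time or handling cannot be told apart. Each array gives the log2 ratio of 1 sample over a pool of all RNA samples. A value therefore compares samples for 1 gene and gives no absolute level, and fewer cells with a transcript and less transcript per cell cannot be told apart.

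Sulfite is a reductant that enters yeast at low pH as sulfur dioxide, breaks disulfide bonds and binds aldehydes such as acetaldehyde. It is also an intermediate of sulfate assimilation, where it is reduced to sulfide for methionine and cysteine. Yeast removes it through Ssu1, a sulfite pump of the plasma membrane whose gene is activated by the zinc finger protein Fzf1. Many kinds of stress in yeast also lead to a common program, in which Msn2 and Msn4 raise genes for protective enzymes, chaperones and storage carbohydrates while genes for ribosome production fall.

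Named genes were read from 8152 features that carry 1 gene symbol, averaged per gene, giving 4071 genes that were measured on no fewer than 2 arrays in each group. All but 1 of them, 4070, had a value on all 6 arrays of the *S. paradoxus* allele. Symbols were tied to values through the layout of the array, under which the paired features of a gene correlated at a median of 0.929 over the 24 arrays. Over genes, arrays of the same time correlated at 0.573 to 0.913, lowest where replicate 3 was one of the pair. Replicate 3 carried the sample in Cy5 at both times and the other replicates in Cy3, so the dye is the same on both sides of each replicate's response. The responses of the 3 replicates, 15 min minus 0 min, correlated at 0.931 to 0.936. A response is given below on the log2 scale with its standard error (SE) from limma, and the test was passed where p, adjusted by Benjamini-Hochberg over all 4071 genes, was under 0.05. The words rose and fell are used only of genes past the test.

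*SSU1*, the sulfite pump gene and the best known target of Fzf1, rose 4.67-fold. Its log2 ratio was −1.14, −1.18 and −0.92 at 0 min and 0.94, 1.04 and 1.46 at 15 min. All 15 min arrays lay above all 0 min arrays, and the response was 2.22 ± 0.20 (SE, adjusted p = 6.84e-09). An exact permutation test on the 3 against 3 arrays gave p = 0.1 (two-sided), the smallest that this number of arrays allows. *YHB1*, the flavohemoglobin that detoxifies nitric oxide and another reported target of Fzf1, moved the other way. It read 0.14, 0.23 and 0.50 at 0 min and −0.52, −0.49 and −0.31 at 15 min, a response of −0.73 ± 0.12 (adjusted p = 3.31e-05). *FZF1* itself read −5.57, −4.91 and −4.44 at 0 min and −4.98, −3.92 and −4.43 at 15 min, far below the pool on every array, and the times overlapped (exact permutation p = 0.4). With the C.P. chimera, which has the same coding region, it read −5.04 to −2.47. With the P.C. chimera, which has the *S. cerevisiae* coding region, it read 0.00 to 2.21, and with the *S. cerevisiae* allele −0.11 to 1.01 on 5 arrays and −3.63 on the other. The array was designed for *S. cerevisiae*, and the part of probe mismatch in these low values was not tested, so they are not read as a level of *FZF1*. The fitted response was 0.53 ± 0.73 (adjusted p = 0.555, and 0.0252 with the replicate number as a block on the 6 arrays alone). The plasmid marker *URA3*, a gene of pyrimidine synthesis, read −1.61, −1.58 and −1.30 at 0 min and −0.57, −0.46 and −0.37 at 15 min. These arrays did not overlap, yet limma, whose SE pools the spread of *URA3* over all alleles, gave 1.03 ± 0.80 (adjusted p = 0.278). On the 6 arrays alone the same difference passed (adjusted p = 0.000761, and 4.49e-05 with the replicate block). The neighbours of the native *FZF1* locus, the zinc transporter gene *ZRT1* and the hexokinase gene *HXK2*, fell by 1.12 and 0.80 on the log2 scale (adjusted p = 0.000408 and 1.47e-05).

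Much of the transcriptome differed between the 0 and 15 min samples. Of the 4071 genes, 1232 rose (30.3%) and 1208 fell (29.7%), and 1631 did not pass. The counts of gene lists below are to be read beside these shares of all genes. At least 2-fold increases were found for 400 genes (9.83%) and at least 2-fold decreases for 456 (11.2%). At least 4-fold, 110 genes rose and 120 fell. Increases reached further: 31 genes rose at least 8-fold and 13 fell as much, and 7 against 2 changed at least 16-fold. The arrays of the 0 and 15 min samples did not overlap for 59% of genes, 1194 of them higher and 1208 lower at 15 min. The 110 genes that rose at least 4-fold had median responses of 2.54, 2.42 and 2.63 in replicates 1, 2 and 3, and the 120 that fell as much had −2.33, −2.46 and −2.27. These genes were chosen by the same 3 replicates, which favours genes whose replicates are close. The 95% interval of the response lay within 2-fold either way for 2436 of all genes (59.8%), among them genes that passed with small changes.

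Enzymes that act on sugars, aldehydes and carbon dioxide were among the strongest increases. *NCE103*, the carbonic anhydrase that makes bicarbonate from carbon dioxide, rose most, 30.5-fold. Its log2 ratio was −3.30, −3.66 and −3.95 at 0 min and 1.59, 1.72 and 0.58 at 15 min, and the response was 4.93 ± 0.31 (adjusted p = 4.63e-11). *TMT1*, a methyltransferase that acts on trans-aconitate, read −3.76, −3.92 and −3.88 at 0 min and 1.07, 1.11 and 0.81 at 15 min. It rose 28.8-fold (response 4.85 ± 0.12, adjusted p = 5.14e-17). In both genes the 3 arrays before sulfite lay far below the pool and the 3 after it lay above. *ALD3*, a cytosolic aldehyde dehydrogenase, read −4.01, −4.25 and −3.84 at 0 min and 0.62, 0.51 and 1.11 at 15 min, a 27.5-fold increase (adjusted p = 3e-11). *ADH5*, an alcohol dehydrogenase that interconverts acetaldehyde and ethanol, read −4.43, −4.01 and −4.00 at 0 min and −0.06, 0.45 and 0.73 at 15 min, a 22.9-fold increase (adjusted p = 1.28e-12). The spread between cultures was small beside these steps, although replicate 1 of *ADH5* reached only the pool level and replicate 3 of *NCE103* lay about 1 below the others at 15 min. *CTT1*, the cytosolic catalase that removes hydrogen peroxide, read −3.42, −3.64 and −3.64 at 0 min and 0.64, 0.81 and 0.91 at 15 min, 20.4-fold higher after sulfite (adjusted p = 1.44e-13). *GND2*, which makes NADPH in the pentose phosphate pathway, read −3.46, −3.33 and −3.64 at 0 min and 1.05, 0.95 and 0.56 at 15 min, 20.1-fold higher (adjusted p = 7.09e-13). *GCY1*, an aldo-keto reductase of glycerol metabolism, read −3.26, −3.21 and −3.07 at 0 min and 1.17, 1.07 and 0.80 at 15 min, 18.3-fold higher (adjusted p = 9.77e-15). The next in order were *ARG4*, which completes arginine synthesis, the transketolase gene *TKL2*, *ARG1*, the step before *ARG4*, *SOL4* of the pentose phosphate pathway, *ATG41* of autophagy, *GPM2*, a paralog of phosphoglycerate mutase, *UIP4* of the nuclear envelope and *DAK2*, a dihydroxyacetone kinase. Their responses ran from 3.53 (*DAK2*) to 3.89 (*ARG4*), and none of these genes had overlapping arrays.

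**Figure D1:**
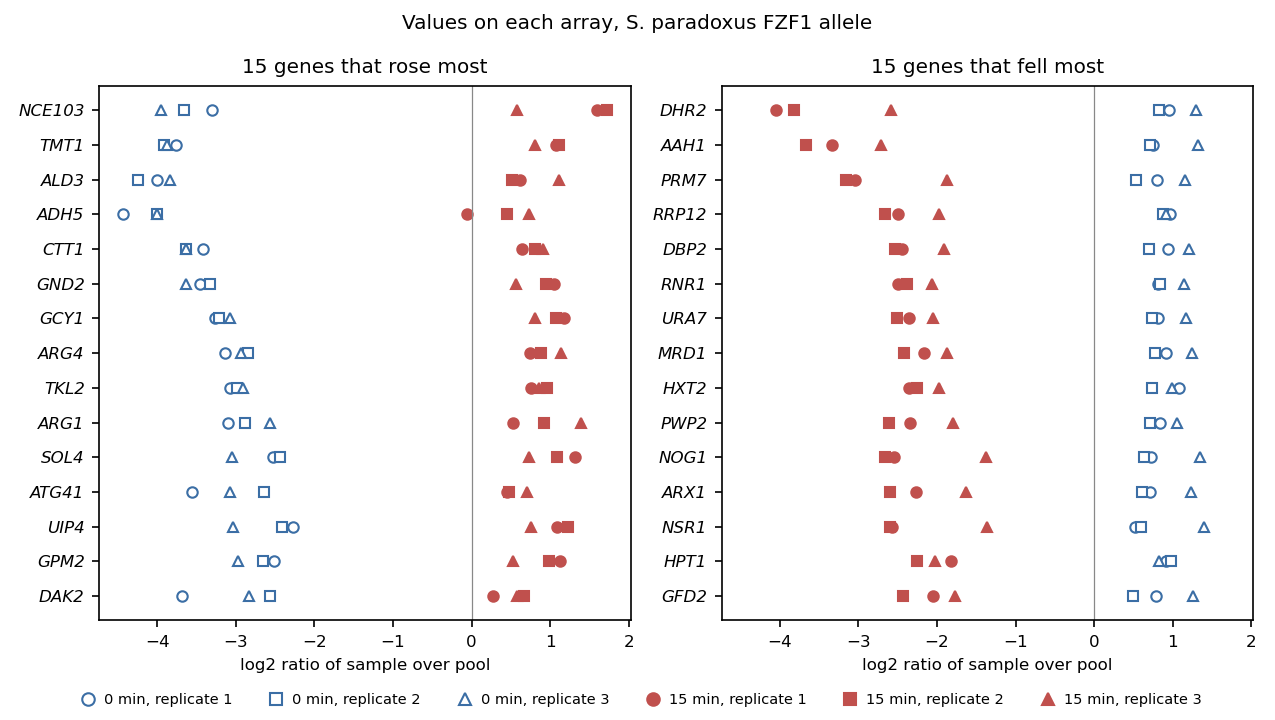
Log2 ratio of sample over pool on each of the 6 arrays for the 15 genes with the highest and the 15 with the lowest response among genes past the test, chosen by that response. Open blue symbols are 0 min arrays, filled red symbols 15 min arrays, and the shape gives the replicate; in every gene the times are separate, and in most of the genes that fell replicate 3 lies to the right of the other replicates at both times.

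Most genes listed for the general stress program rose. Of 37 genes of this list that were tested, 34 rose (91.9%, beside 30.3% of all genes) and 0 fell. At least 2-fold, 33 rose, and the median response was 2.36 beside 0.00 over all genes. The list was drawn up with earlier results of these data known, so its share is no independent result. Some of its members, such as *CTT1*, *GND2* and *HSP26*, are counted again in other lists below. The median was 2.42, 2.19 and 2.57 in the 3 replicates. *ALD3*, *CTT1* and *GND2* led the list. Small heat shock proteins were among the strong members: *HSP26* read −2.82, −2.16 and −2.49 at 0 min and 1.15, 0.89 and 0.36 at 15 min, and its response was 3.29 ± 0.39 (adjusted p = 4e-07). *HSP42*, the other small chaperone of the cytosol, had a response of 3.00 ± 0.20 (adjusted p = 1.36e-10). The 3 members that did not pass include *MSN4* (−0.16, adjusted p = 0.45, but 0.0365 without replicate 3 at 15 min), a regulator of the program, a member named after its value was seen. Chaperones and their partners at large were divided, with 14 of 29 higher, 6 lower and a median of 0.33. These shares were 48.3% and 20.7%, beside 30.3% and 29.7% of all genes. In the Hsp70 family the inducible *SSA4* rose by 3.34, *SSA3*, also known as inducible, gave 0.11 ± 0.18 (adjusted p = 0.628), and *SSA2*, the abundant Hsp70 of growing cells, fell by 1.29. *HSP30*, a plasma membrane protein that restrains the proton pump under stress, had a response of 2.61 (adjusted p = 2.39e-08).

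Storage carbohydrate genes rose as well. In trehalose metabolism 9 of 10 genes rose and 1 fell (median 1.73). *PGM2*, the phosphoglucomutase that feeds both trehalose and glycogen, read −2.36, −2.59 and −2.85 at 0 min and 0.52, 0.65 and 0.69 at 15 min and rose 9.34-fold (adjusted p = 2.81e-11). *TPS2*, which removes the phosphate from trehalose phosphate, and *TSL1*, a subunit of the same complex, rose by 2.59 and 2.44. Genes that break trehalose down rose with those that make it, *NTH1* by 1.67 and *NTH2* by 1.21. In glycogen metabolism 14 of 15 genes rose and 0 fell (median 1.63). They include the primers *GLG1* (2.59) and *GLG2* (1.14), the synthases *GSY2* (2.42) and *GSY1* (1.78), the phosphatase subunit *GIP2* (3.00) and also the phosphorylase *GPH1* (2.59), which releases glucose from glycogen. Glycerol genes rose in 11 of 15 cases with 0 lower (median 0.68), led by *GCY1* and *DAK2*, which make and use dihydroxyacetone. The enzymes that make glycerol itself, *GPD1* and *GPP2*, rose by 1.64 and 1.67.

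NADPH is the electron donor for sulfite reductase and for thiol reduction. In a list of pentose phosphate pathway and NADPH genes, 12 of 17 rose, 2 fell, and the median was 1.03. Not every gene of this list makes NADPH itself. In the oxidative branch of the pentose phosphate pathway, *ZWF1*, the first enzyme, rose by 0.88 (named after its value was seen). *GND1*, the major 6-phosphogluconate dehydrogenase, had a response of 2.49 ± 0.29, and *SOL3*, a lactonase of the step before it, 2.70 ± 0.23. The acetaldehyde dehydrogenase gene *ALD6*, which also makes NADPH, read −0.71, −1.19 and −0.83 at 0 min and 0.50, 0.56 and 0.79 at 15 min, a response of 1.53 ± 0.16 (adjusted p = 6.77e-08). Genes for defence against oxidants rose in 21 of 39 cases and fell in 4 (53.8% and 10.3%, beside 30.3% and 29.7% of all genes, median 0.58). With the replicate block 9 fell, and without replicate 2 at 15 min 2 did. The increases were led by *CTT1*, the peroxiredoxin gene *TSA2* (3.25) and the peroxidase gene *GPX1* (2.31), whereas *TRX1*, one of the cytosolic thioredoxins, stayed within −0.28 to 0.32 (95% interval) and *TRX2*, the other, rose by 0.63.

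Within families of genes for the same enzyme, the response was often carried by 1 gene. Of 23 families with at least 2 genes tested (58 genes), 9 held a gene that rose at least 4-fold beside another that fell or did not pass. Catalase is an example: *CTT1* rose by 4.35, while *CTA1*, the peroxisomal catalase gene, gave −0.44 ± 0.23 (adjusted p = 0.097). Among transketolases *TKL2* rose by 3.85, and *TKL1*, the major one, gave 0.47 ± 0.25 (adjusted p = 0.115). *TSA2* rose by 3.25, and *TSA1*, the abundant peroxiredoxin gene, gave 0.07 ± 0.22 (adjusted p = 0.805). In 6 families 1 gene rose and another fell. *PGM2* rose by 3.22 where *PGM1* fell by 0.88. The Hsp110 gene *SSE2* rose by 2.64 where *SSE1* fell by 0.42. *PDC6*, the minor pyruvate decarboxylase gene, rose by 1.65 where *PDC5* fell by 1.03. Of the hexose kinases, *GLK1*, *EMI2* and *HXK1* rose by 2.10, 1.95 and 1.80, and *HXK2*, the main kinase during growth on glucose, fell by 0.80. In other families the partner did not pass, as with *CYC7* (2.89), the cytochrome c of low oxygen, against *CYC1* (0.33, adjusted p = 0.192), and *PYK2* (1.96) against the main pyruvate kinase gene *CDC19* (−0.56, adjusted p = 0.07). With the replicate number as a block on the 6 arrays, *CTA1*, *TKL1*, *CYC1* and *CDC19* also passed (adjusted p = 0.0353, 0.00858, 0.0149 and 0.0048), with the same small responses. So did *CTA1* without replicate 2 at 0 min or replicate 3 at 15 min (adjusted p = 0.00194 and 0.0395), *TKL1* without replicate 3 at 0 min or replicate 1 at 15 min (0.035 and 0.0337), *CDC19* without replicate 2 at 0 min or replicate 3 at 15 min (0.0257 and 0.0148) and *CYC1* without replicate 3 at 15 min (0.0234). Without replicate 3 at both times *SSE1* did not pass (adjusted p = 0.0764). Closely similar copies such as *PDC1* and *PDC5* or *SSA1* and *SSA2* may share signal on these probes, and probe sequences were not analysed here.

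**Figure D2:**
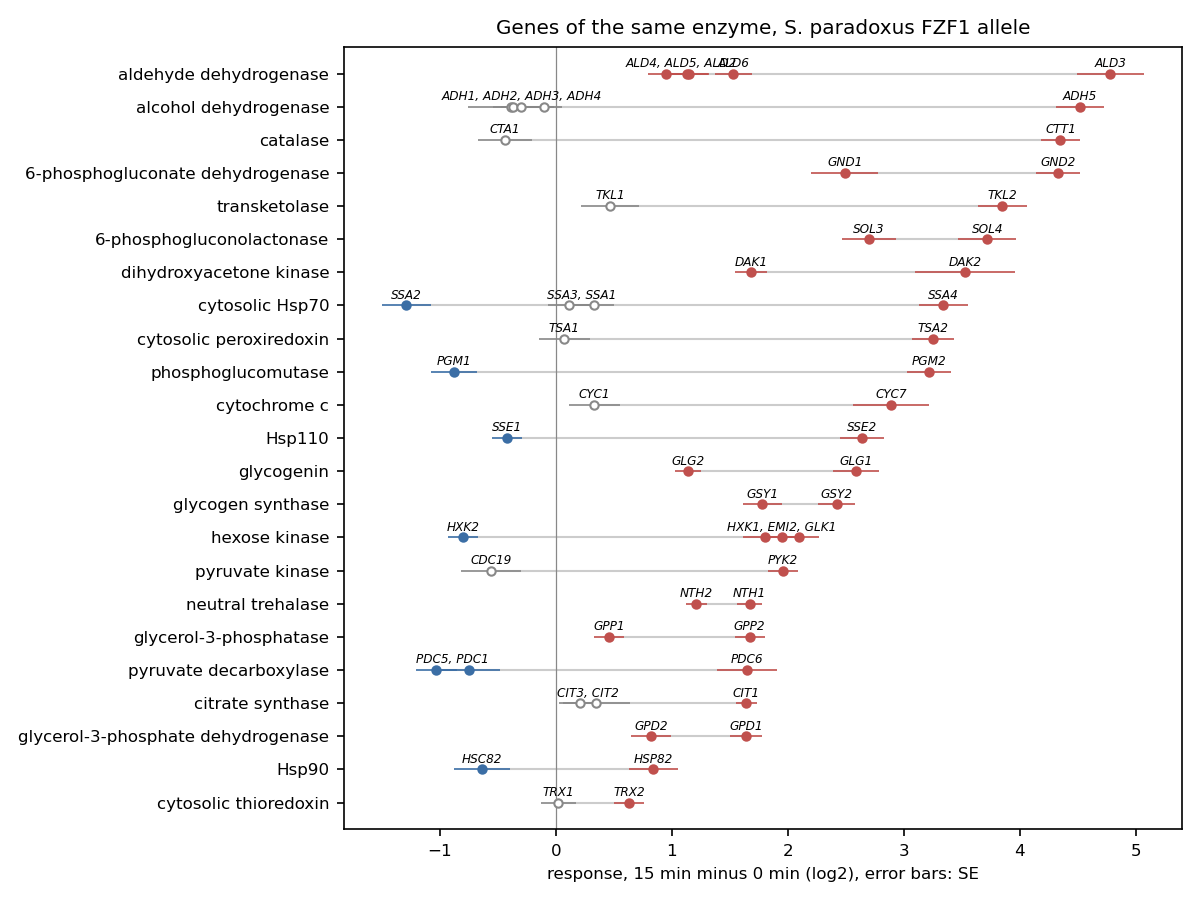
Response (15 min minus 0 min, log2) of each gene in the 23 families with at least 2 genes tested; bars give the SE from limma, red and blue points are genes that rose and fell, and open grey points did not pass. In catalase, transketolase, peroxiredoxin and phosphoglucomutase 1 gene lies beyond 3 and the other lies near or below 0.5.

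The sulfur pathway did not move as 1 unit. Of 10 genes of sulfate assimilation, 5 rose and 2 fell (50% and 20%, beside 30.3% and 29.7% of all genes, median 0.46). *MET22*, the phosphatase that clears the nucleotide left by sulfate reduction, rose by 1.64. *MET10*, a subunit of sulfite reductase, read −0.75, −0.61 and −0.77 at 0 min and 0.04, 0.25 and 0.52 at 15 min, a response of 0.98 ± 0.12 (adjusted p = 5.66e-07), whereas *MET5*, the other subunit, gave 0.18 ± 0.15 (adjusted p = 0.317). *MET8*, which makes the siroheme of that enzyme, fell by 0.79, and *MET1*, which acts on the same cofactor, rose by 0.94. *MET3*, the first enzyme of sulfate activation, gave −0.04 ± 0.13 (adjusted p = 0.819). *MET14*, which acts next, fell by 0.31 (adjusted p = 0.039), but did not pass without replicate 1 or 2 at 0 min or replicate 3 at 15 min (adjusted p = 0.168, 0.0809 and 0.217). Of the sulfate permeases, *SUL2* rose by 0.49, which did not pass without replicate 2 or 3 at 0 min or replicate 3 at 15 min (adjusted p = 0.0793, 0.0657 and 0.127). *SUL1* varied too widely to read: its responses were 0.29, 1.68 and −0.67 in the 3 replicates (SE 0.71).

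Enzymes that make sulfur amino acids were divided. Of 16 genes, 5 rose and 8 fell (31.2% and 50%, beside 30.3% and 29.7% of all genes), with a median of −0.33. Those that rose were *STR2* (2.56), which makes cystathionine from cysteine, *STR3* (2.09), which splits it toward methionine, *MET13* (2.44), which makes the methyl donor for methionine, and *HOM3* (1.83) and *HOM2* (0.96), which start the pathway from aspartate. *STR2* read −1.96, −1.87 and −1.66 at 0 min and 0.64, 0.56 and 0.97 at 15 min, so that all 3 arrays moved from well below the pool to above it (adjusted p = 1.11e-11). The genes of the reverse route to cysteine fell, *CYS4* by 1.25 and *CYS3* by 1.35. *CYS3* read 0.21, 0.05 and 0.95 at 0 min and −1.40, −1.04 and −0.41 at 15 min. Its arrays did not overlap (adjusted p = 0.000461). The methyl cycle fell as well: *SAM1*, an *S*-adenosylmethionine synthetase gene, by 2.13, *SAM2* by 0.96, *SAH1* by 1.00 and the methionine synthase gene *MET6* by 0.94. *SAM1* read 0.63, 0.64 and 0.98 at 0 min and −1.60, −1.27 and −1.27 at 15 min, with no overlap (adjusted p = 4.49e-10). *MET17*, the enzyme that fixes sulfide, fell by 0.39 (adjusted p = 0.0337), and it did not pass without replicate 1 or 3 at 0 min or without replicate 1 or 2 at 15 min (adjusted p = 0.0569, 0.185, 0.18 and 0.113). Of 13 regulators and transporters of sulfur compounds, 3 rose and 6 fell (23.1% and 46.2%, median −0.45). *MET28*, a cofactor of the activator Met4, rose by 2.07, while *MET4* itself rose by 0.58 (adjusted p = 0.00694, but 0.0566 on the 6 arrays alone). *MUP3*, a low affinity methionine permease, rose by 0.38. The transporters *MMP1* for *S*-methylmethionine, *MUP1* for methionine, *SAM3* for *S*-adenosylmethionine and *OPT1* for glutathione fell, by 1.85, 1.00, 0.90 and 0.85.

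**Figure D3:**
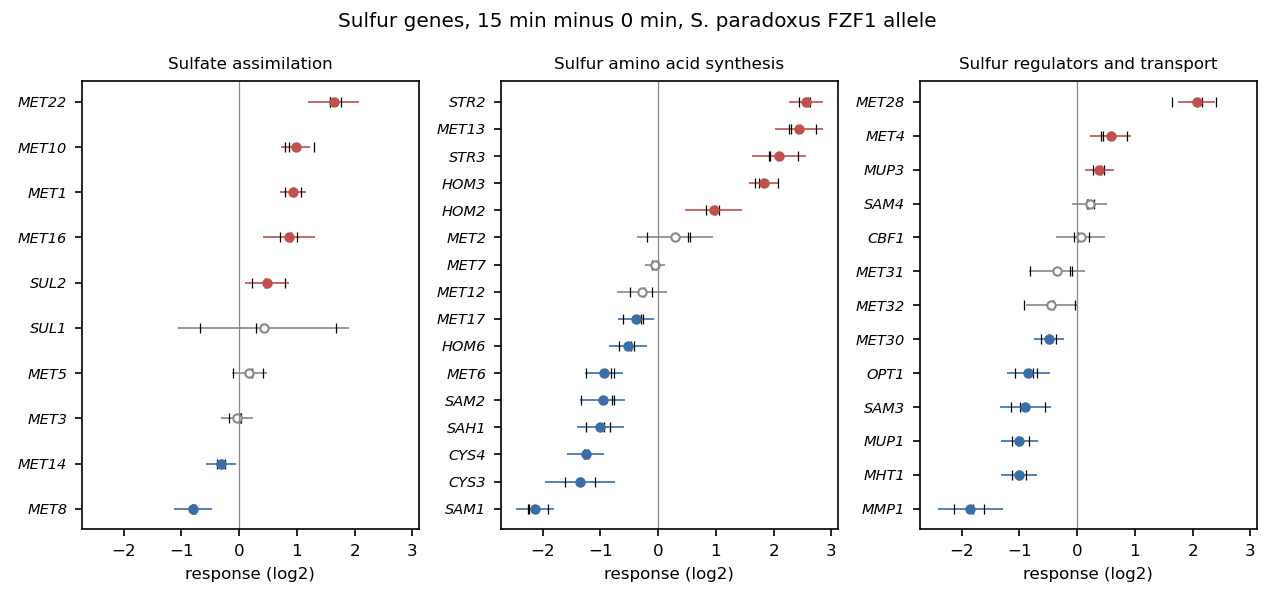
Responses of the 39 sulfur genes tested (15 min minus 0 min, log2), in 3 lists. Points give the fit with its 95% interval (red rose, blue fell, open grey did not pass) and black ticks the 3 replicates; *STR2*, *MET13*, *STR3* and *MET28* lie above 2 and *SAM1* below −2, and *SUL1* has the widest interval.

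Most genes of arginine synthesis rose. Of its 11 genes 7 rose, each at least 2-fold, and 1 fell (median 1.68). *ARG4*, the last enzyme, read −3.14, −2.84 and −2.93 at 0 min and 0.74, 0.88 and 1.14 at 15 min, 14.9-fold higher after sulfite (adjusted p = 5.19e-14), and *ARG1*, the enzyme before it, read −3.10, −2.89 and −2.56 at 0 min and 0.53, 0.92 and 1.39 at 15 min, 13.9-fold higher (adjusted p = 5.28e-10). *ARG3*, which makes citrulline, rose by 2.74. The other amino acid routes were mixed, with 23 of 54 higher and 9 lower (median 0.13), the latter 16 without replicate 3 at 15 min. *HIS4*, *LEU2* and *HIS3* rose most (2.31, 2.16 and 2.12). Genes that break down aromatic, branched and other amino acids rose in 11 of 20 cases with 1 lower (55% and 5%, beside 30.3% and 29.7% of all genes). Among those that rose were *GAD1* (3.02), which makes GABA from glutamate, and *UGA1* (2.34), which uses it. The 8 that did not pass were *ARO8*, *ARO9*, *BAT1*, *THI3*, *PUT1*, *PUT2*, *CAR1* and *CHA1*. Of 17 amino acid permeases 5 rose and 5 fell (29.4% each, beside 30.3% and 29.7% of all genes). *TAT1*, a permease for tyrosine and branched amino acids, and *GNP1*, the glutamine permease, fell by 2.30 and 1.42, and *AGP2* rose by 1.43.

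Most genes of respiration and of peroxisomes rose, and most mitochondrial ribosomal protein genes did not pass. In respiration and the citric acid cycle, 43 of 56 genes rose and 2 fell, with a median of 0.73 that was 0.76, 0.67 and 0.77 in the replicates. *CYC7*, *LSC2* of the citric acid cycle and *NDE2*, an external NADH dehydrogenase, led with 2.89, 2.05 and 1.92. Mitochondrial ribosomal proteins had 16 of 56 genes higher (28.6%, beside 30.3% of all genes), 0 lower and a median of 0.27. That count was 28 with the replicate block on the 6 arrays, 8 without replicate 3 at 0 min, 7, 10 and 26 without replicate 1, 2 or 3 at 15 min. Of 38 peroxisome and fatty acid genes, 26 rose and 4 fell (median 0.62). *POT1*, the thiolase of fatty acid oxidation, rose by 1.92, but *FAA4*, which activates fatty acids taken up from the medium, fell by 2.30. Autophagy genes rose in 20 of 27 cases with 2 lower (median 0.72). *ATG8*, the ubiquitin-like protein of the autophagosome, read −0.93, −0.82 and −1.58 at 0 min and 1.08, 0.85 and 0.58 at 15 min, a response of 1.95 ± 0.22 (adjusted p = 1.97e-07), and *ATG41* rose by 3.63. Proteasome genes gave 12 of 35 higher (34.3%, beside 30.3% of all genes) and 0 lower, with a median of 0.25 and 0 of the genes at 2-fold. Without replicate 3 at 0 min 7 of them passed, and without replicate 1 or 3 at 15 min 5 and 21 did.

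Glycolysis as a list hardly shifted, with 9 of 25 higher, 3 lower and a median of 0.11. These shares were 36% and 12%, beside 30.3% and 29.7% of all genes. Of the list, 5 genes fell without replicate 3 at 15 min and 7 with the replicate block on the 6 arrays. *TDH1*, a minor form of glyceraldehyde-3-phosphate dehydrogenase, and *GPM2* rose by 2.78 and 3.59. Among glucose transporter genes, some rose and some fell. *HXT2*, a high affinity glucose transporter, read 1.08, 0.73 and 0.99 at 0 min and −2.35, −2.25 and −1.98 at 15 min and fell by 3.13 (adjusted p = 6.42e-10). *HXT1*, a low affinity transporter, fell by 2.21. *HXT5*, the transporter of slow growth, rose by 2.80. Of the 20 hexose transport genes 4 rose and 5 fell (20% and 25%, beside 30.3% and 29.7% of all genes), and 11 did not pass. In fermentation and acetaldehyde use, 9 of 21 rose and 6 fell (42.9% and 28.6%). *ATF2*, an alcohol acetyltransferase, fell by 2.29 and *ALD3* and *ADH5* rose. Of the other alcohol dehydrogenases, *ADH1* gave −0.39 ± 0.37 and *ADH4* −0.10 ± 0.15, both with overlapping arrays (adjusted p = 0.371 and 0.589). In gluconeogenesis and the glyoxylate cycle, *SIP4*, an activator, rose by 2.56. Of 18 genes 9 rose and 1 fell (50% and 5.56%, beside 30.3% and 29.7% of all genes, median 0.41). With the replicate block on the 6 arrays 14 rose and 2 fell. The 8 that did not pass in the main fit were *PCK1*, *FBP1*, *ICL1*, *MLS1*, *MDH3*, *CIT2*, *ADR1* and *DIC1*.

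The decreases were concentrated in ribosome production. Of 124 ribosome biogenesis genes, 122 fell and 0 rose, 118 of them at least 2-fold, and the median was −2.11 (−2.08, −2.24 and −1.95 in the replicates) beside 0.00 for all genes. They made up 73 of the 120 genes that fell at least 4-fold. *DHR2*, an RNA helicase for the small ribosomal subunit, fell most of any gene. It read 0.95, 0.82 and 1.30 at 0 min and −4.05, −3.82 and −2.59 at 15 min, a 22.8-fold decrease (response −4.51 ± 0.31, adjusted p = 1.42e-10). All arrays passed from above the pool to far below it, least so in replicate 3. *RRP12*, a factor for export of both subunits, read 0.96, 0.87 and 0.92 at 0 min and −2.49, −2.66 and −1.98 at 15 min, a 9.79-fold decrease (adjusted p = 2.18e-11). *DBP2*, an RNA helicase, and *NSR1*, the yeast nucleolin, fell by 3.24 and 3.02. The other members among the 15 lowest genes, *MRD1* and *PWP2* of the small subunit and *NOG1* and *ARX1* of the large one, fell by 3.13, 3.12, 3.10 and 3.02. The polymerases that make ribosomal and transfer RNA followed, with 29 of 41 genes lower, 5 higher and a median of −1.13. *RPA135*, *RPA34* and *RPA190* of RNA polymerase I fell by 2.34, 2.19 and 2.18. Translation factors and tRNA synthetases fell in 44 of 48 cases with 1 higher (median −0.87), led by *NIP1* (−1.74), *TIF4631* (−1.70) and *FUN12* (−1.68), all of initiation. Cytosolic ribosomal proteins, mostly those without a paralog, fell less: 9 of 24 passed, all lower (37.5%, beside 29.7% of all genes), with a median of −0.59. With the replicate block 19 of them passed, and 22 with it on the 6 arrays alone, while 5 passed without replicate 3 at 0 min. Their values were wide between arrays: *RPS2* read 0.10, −0.03 and 0.94 at 0 min and −0.99, −0.69 and −0.07 at 15 min and fell by 0.92 (adjusted p = 0.0211), but it did not pass without replicate 3 at 0 min or without replicate 1 or 2 at 15 min (adjusted p = 0.138, 0.104 and 0.0604).

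**Figure D4:**
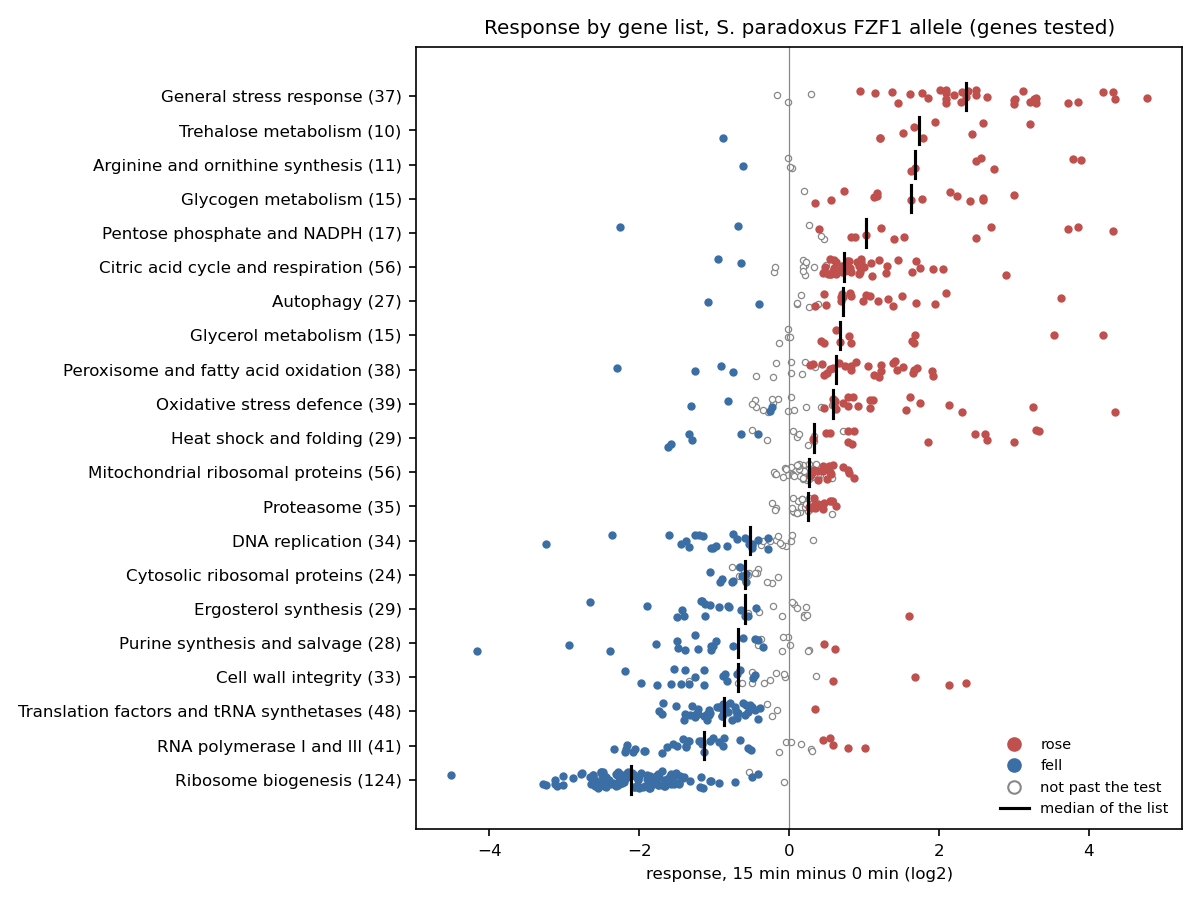
Response (15 min minus 0 min, log2) of each gene tested in 21 gene lists, with the number tested in brackets; red points rose, blue points fell, open grey points did not pass, and the black bar is the median of the list. General stress genes lie around 2.36 and ribosome biogenesis genes around −2.11, and mitochondrial ribosomal proteins and proteasome genes lie close to 0.

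Nucleotide supply and DNA replication fell too. *AAH1*, the adenine deaminase, came next to *DHR2* in the order of decreases. It read 0.75, 0.71 and 1.32 at 0 min and −3.34, −3.67 and −2.71 at 15 min, an 18-fold decrease (adjusted p = 1.76e-11). *HPT1*, which salvages hypoxanthine and guanine, and *IMD4*, which makes guanine nucleotides, fell by 2.94 and 2.39. Of 28 purine genes 18 fell and 2 rose (median −0.68), and of 15 pyrimidine genes 10 fell and 2 rose (median −0.68). *URA7*, the CTP synthase gene, fell by 3.21, while *URA10*, the minor copy of orotate phosphoribosyltransferase, rose by 2.87. *RNR1*, the large subunit of ribonucleotide reductase, read 0.81, 0.84 and 1.14 at 0 min and −2.50, −2.38 and −2.06 at 15 min, a 9.46-fold decrease (adjusted p = 5.22e-11). *POL30*, the sliding clamp of DNA polymerase, fell by 2.36 and *POL1*, the primase-associated polymerase, by 1.60. In all 23 of 34 replication genes fell and 0 rose (median −0.52). Cyclins of the start of the cycle fell too, *CLN2* by 1.13 and *CLN3* by 1.10, and *CLB2*, the mitotic cyclin, by 1.02. Of the 17 genes for cycle start 8 fell and 1 rose (47.1% and 5.88%). Of 22 mitotic genes 11 fell and 3 rose (50% and 13.6%, beside 29.7% and 30.3% of all genes). Mating genes were mixed, 8 of 34 higher and 14 lower (23.5% and 41.2%, beside 30.3% and 29.7% of all genes). *PRM7*, a pheromone-regulated gene among the 15 lowest, read 0.80, 0.53 and 1.16 at 0 min and −3.04, −3.16 and −1.87 at 15 min (adjusted p = 1.29e-08). Histone genes mostly did not pass, 1 of 11 higher and 2 lower (9.09% and 18.2%, both below the shares of all genes).

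The cell surface changed as well. In ergosterol synthesis 17 of 29 genes fell and 1 rose (median −0.59). *ERG3*, the sterol desaturase, fell by 2.66 and *ERG25*, which removes methyl groups from sterols, by 1.90, and *ERG28*, a scaffold of the same complex, was the 1 gene that rose (1.60). In the cell wall list 18 of 33 fell and 4 rose. *SCW10*, a wall glucanase, fell by 2.19, and *SPI1*, a wall protein of weak acid resistance, and *PIR3*, a wall mannoprotein, rose by 2.36 and 2.14. *PDR12*, the pump that exports weak organic acids, read 0.39, 0.58 and 0.81 at 0 min and −1.67, −1.71 and −1.31 at 15 min and fell by 2.16 (adjusted p = 1.36e-08). *TPO4*, a polyamine exporter, rose by 1.99. In the efflux list as a whole 11 of 27 rose and 6 fell (40.7% and 22.2%, beside 30.3% and 29.7% of all genes). Iron genes gave 13 of 35 higher and 6 lower (37.1% and 17.1%, beside the same shares of all genes). Without replicate 3 at 0 min or replicate 1 at 15 min 3 were lower. *TIS11*, which marks iron-dependent messengers for decay, rose by 2.00, and *FTR1*, the iron permease, fell by 1.90. In the phosphate list, 6 of 24 rose and 9 fell (25% and 37.5%). There *PHM7* rose by 3.29 where *PHO90*, a low affinity phosphate transporter, fell by 2.21. Of 12 genes of carbonic acid and pH response 6 rose and 3 fell (50% and 25%). The count that rose was 3 without replicate 2 at 0 min or replicate 3 at 15 min, and 4 without replicate 1 at 0 min. *NCE103* led them, *RIM20*, which acts in the alkaline pathway, rose by 1.39, and the sodium pump gene *ENA1*, which shares close copies, fell by 0.98 (adjusted p = 0.00515, but 0.0611 on the 6 arrays alone).

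The design asks whether this response differed from that with the other *FZF1* alleles. Of the 2440 genes that changed, 2369 (97.1%) had a fitted response of the same sign with all 4 alleles. Tested as a difference of responses, 0 of 4071 genes differed from the mean of the other 3 alleles by limma (0%), although 559 had an unadjusted p under 0.05, where 203.6 would be expected with no difference. Of these, 333 lay lower with the *S. paradoxus* allele and 226 higher. The smallest adjusted p was 0.0594. The comparisons with single alleles also gave 0 genes each, with smallest adjusted p of 0.327 against the *S. cerevisiae* allele, 0.464 against the C.P. chimera and 0.0551 against the P.C. chimera (391, 232 and 451 genes at an unadjusted p under 0.05). The 4 comparisons share the arrays of the *S. paradoxus* allele. The 95% interval of the difference from the mean of the others lay within 2-fold either way for 3699 genes (90.9%). These counts of 0 depend on the setting. With the replicate number as a block, 164 genes differed from the mean of the others, 3 from the *S. cerevisiae* allele, 0 from the C.P. chimera and 52 from the P.C. chimera. Against the mean of the others, 171 genes differed on Cy3 arrays alone, 578 with array weights and 711 under the study's model. Without replicate 3 at 15 min, the array with the narrowest spread (SD over genes 0.45, against 0.56 to 0.64 on the other 5), 147 genes differed from the mean of the others and 5 from the *S. cerevisiae* allele, and without replicate 3 at both times 1 gene differed from the mean.

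Some of the genes with the smallest p in these comparisons, chosen by that p, are described here, with *SSU1* beside them as the target of Fzf1. *APC4*, *DOG1*, *GAC1*, *KAR2*, *RPC10*, *SCM3* and *SOV1* were chosen in the same way and are not described. *HSP30* read −3.26, −2.46 and −3.02 at 0 min and −0.40, −0.30 and −0.22 at 15 min with the *S. paradoxus* allele. Its response of 2.61 compares with 3.74, 4.22 and 4.56 with the *S. cerevisiae* allele, the C.P. chimera and the P.C. chimera, a difference from their mean of −1.57 (95% interval −2.18 to −0.95, adjusted p = 0.0594). At 15 min all 3 arrays lay below the 9 arrays of the other alleles, which ran from 0.26 to 1.65, and at 0 min the alleles overlapped. *AGP1*, a broad amino acid permease, read −1.30, −1.30 and −0.92 at 0 min and −0.40, −0.22 and 0.30 at 15 min. It rose by 1.06 against 2.08, 1.85 and 2.19 with the other alleles (difference −0.98, 95% interval −1.37 to −0.58, adjusted p = 0.0594), and again the 15 min arrays lay below those of the other alleles. *FIR1*, a protein of messenger RNA 3′ processing, read 0.01, 0.12 and 0.05 at 0 min and 0.27, −0.09 and −0.06 at 15 min. Its response was −0.02 where the other alleles gave −0.57, −0.52 and −0.86 (difference 0.63, 95% interval 0.38 to 0.88, adjusted p = 0.0594). *HOF1*, a protein of the bud neck in cytokinesis, fell by 0.29 against decreases of 0.86, 1.09 and 1.01 (difference 0.70, adjusted p = 0.0715). Its own decrease (adjusted p = 0.0486) did not pass without replicate 1, 2 or 3 at 0 min or replicate 3 at 15 min (adjusted p = 0.154, 0.07, 0.0561 and 0.274). *AIR1*, a subunit of the nuclear RNA surveillance complex, gave −0.36 against −0.99, −0.87 and −1.02 (difference 0.60, adjusted p = 0.117), and its own decrease did not pass without replicate 2 at 15 min (adjusted p = 0.0529). *SSU1* rose by 2.22 against 1.64, 2.08 and 1.86, a difference from the mean of 0.37 (95% interval −0.11 to 0.84, adjusted p = 0.494). Its level was the highest of the 4 alleles at both times: the 0 min arrays, −1.18 to −0.92, lay above the 9 others at −1.79 to −1.31, and the 15 min arrays, 0.94 to 1.46, above the 9 others at −0.13 to 0.89. These levels were not tested here.

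**Figure D5:**
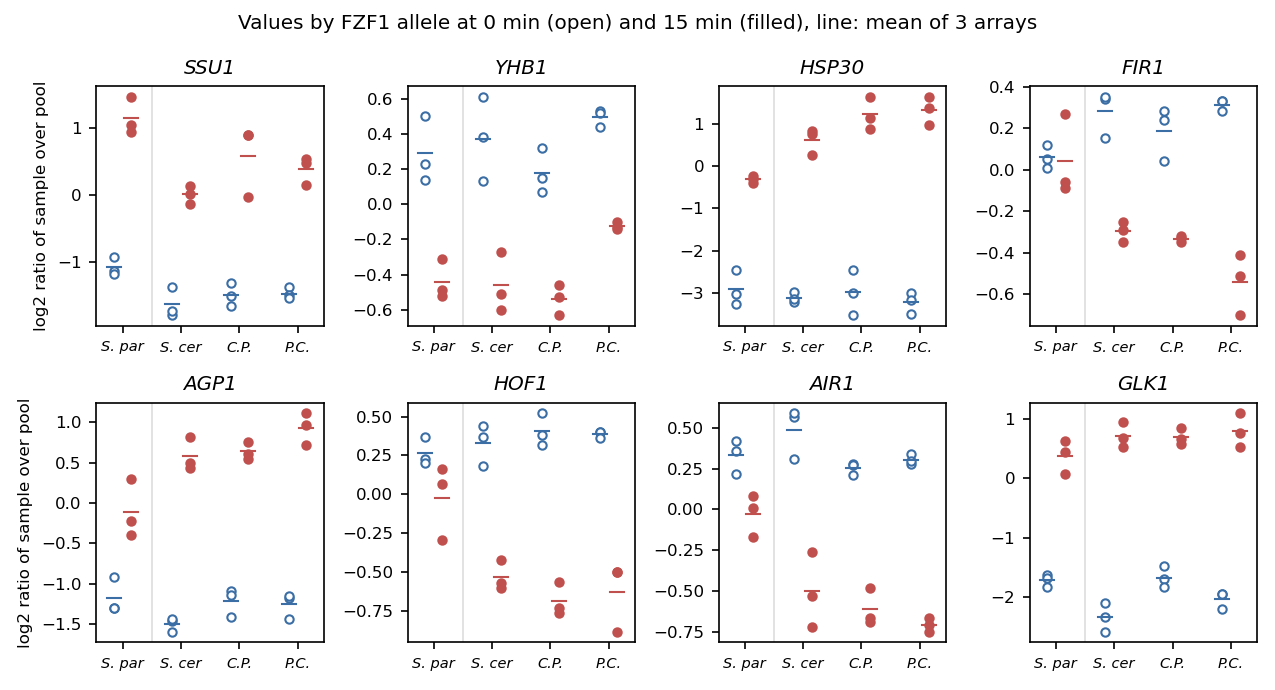
Log2 ratio of sample over pool for 8 genes with each *FZF1* allele (S. par, *S. paradoxus*; S. cer, *S. cerevisiae*; C.P. and P.C., the chimeras) at 0 min (open blue) and 15 min (filled red), 3 arrays each, with a line at the mean and a separate axis per gene. At 15 min *HSP30* and *AGP1* lie lower, and *SSU1*, *FIR1*, *HOF1* and *AIR1* higher, with the *S. paradoxus* allele than with any of the others on average.

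By list, the median responses with the *S. paradoxus* allele were close to those with the other alleles for general stress and ribosome biogenesis genes. General stress genes had medians of 2.36 with the *S. paradoxus* allele and 2.70, 2.55 and 2.74 with the *S. cerevisiae* allele, the C.P. chimera and the P.C. chimera. Ribosome biogenesis genes had −2.11 against −2.38, −2.17 and −2.06. Other lists leaned one way. Amino acid permeases had a response below the mean of the others in 16 of 17 genes, iron genes in 30 of 35, cell wall genes in 29 of 33 and genes of fermentation and acetaldehyde in 20 of 21, where over all genes 1936 of 4071 did. Mitotic genes did so in 3 of 22 and histones in 0 of 11. Among larger lists, mitochondrial ribosomal proteins did so in 6 of 56, genes of RNA polymerase I and III in 9 of 41. Translation factors and tRNA synthetases did so in 33 of 48. The genes of a list share the same 6 arrays and are not replicates, so these counts describe the lists and were not tested.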

How the data were processed

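Agilent yeast V2 arrays were read in 2 colours, with each of the 24 samples set against a pool of all RNA. The values deposited by the authors are log2 ratios of sample over pool, median normalized per array, with dye swaps already turned to one orientation. Background correction, the filter behind empty features and any normalization between dyes are not given in the sources used here. The value table and the platform annotation number features in different orders. Symbols were therefore assigned through the array layout, which was tested on the features themselves: the paired features of a gene correlated at a median of 0.9288 (4040 genes), against −0.0085 (2517 genes) when equal numbers were matched. Of 15744 features, 8152 had 1 symbol and 7592 none. Symbols were updated for 125 genes through the RefSeq table, and 8 were not in it.

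Features were averaged per gene, arrays centred on the gene median, and 8 group means fitted to the 24 arrays with limma 3.58.1 (R 4.3.3) for 4071 genes with values on at least 2 arrays per group. Benjamini-Hochberg adjusted p under 0.05 passed. Contrasts were 15 min minus 0 min for the *S. paradoxus* allele, and its difference from the mean of, and from each of, the other alleles. On simulated data with the real spread of each gene, 89.5% of 2-fold responses were recovered, with 3.2% of calls false (4071 genes). For the difference from the mean of the others, 81% of 2-fold differences were recovered with 4.7% false. The simulation changed only a small part of the genes and drew every array independently. These rates therefore need not hold for the real data, where most genes changed and arrays share deviations. The precision is limited by 3 arrays per group.

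The replicate numbers were taken to pair the samples of the *S. paradoxus* allele. The study's methods state that each culture was sampled at several times, but the labels do not say that equal numbers are 1 culture. Deviations of same-numbered arrays from their group means correlated at 0.49, 0.48 and 0.76, although replicate 3 also shares its dye. The same correlations were 0.51, 0.39 and 0.72 for the *S. cerevisiae* allele, −0.02, 0.41 and 0.38 for the C.P. chimera and −0.01, −0.24 and −0.46 for the P.C. chimera, in which the Cy5 sample was replicate 3 at 0 min and replicate 2 at 15 min (these 2 arrays correlated at 0.42). Since not every pair was above 0.1, the main comparison between alleles has no block, and the blocked counts are given beside it. Alternatives were the replicate block, dye, scaling, array weights, a robust fit, the 6 arrays alone, feature averaging, the threshold, each array left out, and the study's model, in which each feature is an observation at an unadjusted P under 0.01.

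Genes named were drawn from *FZF1*, *SSU1*, *YHB1*, *URA3*, *ZRT1* and *HXK2*, the 15 highest and 15 lowest responses past the test with separate arrays, the 3 largest in each of 48 lists, all members of the sulfur lists and of 24 enzyme families, and the 5 smallest p in each comparison between alleles. Not every gene of these groups is described. *MSN4*, *ZWF1* and the genes listed as not passing in gluconeogenesis and in amino acid breakdown were named after their values were seen. The members and lists were chosen with earlier results of these data known. Promoter and protein sequences were not analysed here.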

Additional observations from a re-analysis of the deposited data

Results flagged for a closer look

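Features that carry no gene symbol in the annotation used here, and that entered no comparison above, also responded with the *S. paradoxus* allele. Of the 4430 such features with a value on all 6 arrays, 944 (21.3%) lay at least 2-fold apart between 0 and 15 min with arrays that did not overlap, 559 higher and 385 lower at 15 min. Among the 8121 features with a symbol the share was 20.9%, with 779 higher and 920 lower. The differences of the unnamed features ran from −3.63 to 5.68 on the log2 scale, against −4.56 to 4.95 for the named ones. Which genes these features measure was not analysed here, and no test was made on them.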

How the results depend on the processing

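The counts of genes that rose or fell with the *S. paradoxus* allele stayed within 1.5 times under every setting tried, from 997 (adjusted p under 0.01) to 1515 (array weights) for increases and from 1002 to 1493 for decreases. With single arrays left out they ran from 1088 to 1269 and from 1075 to 1267 (375 to 459 and 419 to 541 at least 2-fold). With the replicate block 1389 rose and 1363 fell, and with the block on the 6 arrays alone 1414 and 1399. The block also changed the calls of *CTA1*, *TKL1*, *CYC1*, *CDC19*, *FZF1* and *URA3*, as given above with the list counts that moved, and of no other gene that is given with its value. Of the 2440 genes that changed, 1999 to 2440 were shared with each setting, all with the same sign.

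The counts of differences between alleles depended on the setting. Against the mean of the others, 0 genes passed, but 164 did with the replicate block, 9 with dye as a term, 171 on Cy3 arrays alone, 2 after quantile normalization, 578 with array weights, 1 without replicate 3 at both times (chosen after seeing the data) and 711 under the study's model. The counts against the *S. cerevisiae* allele were 3 with the block, 2 on Cy3 arrays, 205 with array weights and 522 under the study's model. The counts against the C.P. chimera were 67 with array weights and 352 under the study's model. The counts against the P.C. chimera were 52 with the block, 19 with dye, 380 on Cy3 arrays, 2 after quantile normalization, 130 with array weights, 1 without replicate 3 at both times and 558 under the study's model. Counts under the study's model use an unadjusted P under 0.01 and each feature as an observation, unlike the others. With single arrays left out the 4 counts ran from 0 to 147, 0 to 5, 0 to 0 and 0 to 7. The cause was not tested. Over 17 settings of limma, the adjusted p of the differences ran from 0.00518 to 0.483 for *HSP30*, 0.00253 to 0.483 for *FIR1*, 0.000721 to 0.483 for *AGP1* and *HOF1*, and 0.0157 to 0.483 for *AIR1*, with the same sign throughout. The difference of *SSU1* passed in 0 of them (0.24 to 0.769).

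Of 3220 recomputed gene responses, 3123 kept sign and call, 38 lost the call, 38 gained it and 21 changed sign, none of them past the test. On the 6 arrays alone *HOF1*, *MET14* and *MET17* did not pass either (adjusted p = 0.154, 0.148 and 0.149). After quantile normalization *ADH4* gave 0.01, *FZF1* 0.00, *MET3* 0.05 and *TRX1* −0.00, and *ADH4* gave 0.00 with array weights. *FIR1* gave 0.03 on Cy3 arrays and 0.03 without replicate 3 at both times. With single arrays left out, the response ran from −0.77 to 0.05 for *ADH1*, −0.24 to 0.05 for *ADH4*, −0.13 to 0.05 for *FIR1*, −0.18 to 0.07 for *MET3*, −0.29 to 1.29 for *SUL1*, −0.08 to 0.26 for *SSA3*, −0.04 to 0.08 for *TRX1* and −0.03 to 0.21 for *TSA1*. List medians moved by more than the spread between replicates in 114 of 980 cases. Whether a median changed sign was not tested.

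With 3 arrays per group, 89.5% of simulated responses of 1 on the log2 scale were recovered, but responses of 0.5 in 29% of cases and such differences from the mean of the others in 19.5%. Few genes were changed in that simulation and its arrays were independent, so the rates need not hold for the real data. The 0 min replicate 2 of the *S. cerevisiae* allele read −3.63 for *FZF1*, against its label, and 1.20 for *URA3*. The latter also read high on other arrays, up to 2.30 with the C.P. chimera. Without that replicate, 1224 genes rose and 1212 fell with the *S. paradoxus* allele and 0 differed between alleles.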
